A study of Mus musculus with 16 samples.

Results

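This report follows 9 inflammatory chemokine genes, Cx3cl1, Cxcl16, Cxcl9, Cxcl10, Ccl2, Ccl7, Cxcl1, Ccl5 and Cxcl14, in lung endothelial cells (ECs), which form the inner lining of blood vessels, of young and aged mice with and without bleomycin injury. The members were taken by gene symbol, and all 9 were found among the 43346 genes of the merged count and FPKM table (FPKM scales fragments by gene length and library total). The mice were Col1a1-GFP transgenic animals of the FVB strain, in which a collagen gene promoter drives GFP in matrix-producing cells, and every group carried this reporter. The young animals were aged 2 months and the old ones 18 months. They received either bleomycin, a drug that injures the lung and leads to fibrosis, or PBS into the airways, and lungs were taken at day 30. The PBS groups were Young Sham with 5 libraries and Aged Sham with 3, and the bleomycin groups were Young Bleo and Aged Bleo with 4 libraries each. The sort kept CD31+ cells and removed CD45+ leukocytes, EpCAM+ epithelium and GFP+ cells, so ECs of every vessel type were pooled within a library. Libraries are named here by the numbers in their titles. The labels do not name the animal behind a library, while the study's text treats its data points as separate mice.

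Chemokines are small secreted proteins that steer leukocytes by binding G protein-coupled receptors. ECs display them on cell surface proteoglycans, where rolling leukocytes meet them before they leave the vessel. Cx3cl1 and Cxcl16 are unusual in being made as membrane-tethered proteins that proteases of the ADAM family can release. Cxcl9 and Cxcl10 are induced by interferons and attract T and NK cells through Cxcr3, Ccl2 and Ccl7 attract monocytes through Ccr2, and Cxcl1 attracts neutrophils through Cxcr2.

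Libraries held between 20.9 and 71.0 mega-counts, and every pair of replicates differed by more than counting noise (chi-square per degree of freedom at least 27.1). All 12 endothelial markers were detected in every library. Their summed normalized count (counts divided by the DESeq2 size factor) was 959708 to 1115340 in Young Sham and 901690 to 981537 in Aged Sham, against 616427 to 831671 in Young Bleo and 591533 to 875734 in Aged Bleo. Markers of other cell types were present too. The sum of 14 macrophage markers was 3395 to 5874 in Young Sham and 7682 to 26988 in Aged Sham. After bleomycin it was 18710.4 to 57242 in young cells and 28133 to 209055 in aged cells, where Aged Bleo 1 and Aged Bleo 2 were highest. Cd68 and Lyz2, which macrophages express strongly, were detected in every library, and 9 to 14 of the 14 markers were. The sum of 12 T and NK cell markers was 1427 in Aged Sham 13 and 4124 in Aged Bleo 5, and 206.8 to 652 in the 14 other libraries. The sum of 5 mesothelial markers was 0.978 to 278 in Young Sham, 757 to 3119 in Aged Sham, 1174 to 3441 in Young Bleo and 153 to 1262 in Aged Bleo, and its r over the 16 libraries was 0.57 with Cxcl10. The sum of 8 mural cell markers went the other way, from 9966 to 22625 in Young Sham and 6786 to 11216 in Aged Sham to 3384 to 9362 in Young Bleo and 2385 to 4627 in Aged Bleo, with r of 0.72 to Cx3cl1, -0.68 to Cxcl10 and -0.78 to Ccl2. Their part in these results was not tested. After seeing the data, fits were added without Aged Bleo 1 and 2 and without Aged Sham 13 and Aged Bleo 5. Where a member was most extreme in the libraries left out, a smaller difference follows from that choice and supports nothing further. The study describes mice of both sexes. The normalized count of Y-linked Ddx3y was 1359 to 3660 over the 16 libraries, and that of Xist, which is expressed from the inactive X of females, was 0 to 39.0. Eif2s3y, Kdm5d and Uty, also Y-linked, reached 10 counts in all 16 libraries, so each library carried the values of male cells. Because these are bulk samples, fewer cells of a type and less RNA per cell cannot be told apart in any value below.

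The sequences just upstream of the members' transcription starts were examined first, because Cxcl9 and Cxcl10 are neighbours on chromosome 5 and were both called higher in Aged Sham. RefSeq windows on GRCm38.p6 (the mm10 build of the deposited coordinates) were matched for 5 of the 9 members. Those of Cxcl16, Ccl2, Ccl5 and Ccl7 were not used here. The 250 bases before the start are printed for the pair and, as the contrasts, for Cxcl1, a classical NF-kappaB target, and for Cx3cl1, which fell after injury. Cxcl10 lies on the minus strand (chr5:92348890-92349139), as does Cxcl9 (chr5:92328080-92328329). Cxcl1 (chr5:90890995-90891244) and Cx3cl1 (chr8:94771930-94772179) lie on the plus strand. Each is written 5′ to 3′ along the gene, and capitals mark the motif matches.

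Cxcl10: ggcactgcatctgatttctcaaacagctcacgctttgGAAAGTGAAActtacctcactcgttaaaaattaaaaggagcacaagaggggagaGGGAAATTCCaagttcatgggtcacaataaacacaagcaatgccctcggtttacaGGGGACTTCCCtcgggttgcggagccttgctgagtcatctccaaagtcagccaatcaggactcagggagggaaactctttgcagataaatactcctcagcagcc
Cxcl9: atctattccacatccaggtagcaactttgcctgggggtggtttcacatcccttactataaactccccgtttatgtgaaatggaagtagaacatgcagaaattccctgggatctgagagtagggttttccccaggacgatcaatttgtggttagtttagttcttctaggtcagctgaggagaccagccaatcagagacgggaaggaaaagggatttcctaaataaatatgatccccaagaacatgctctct
Cxcl1: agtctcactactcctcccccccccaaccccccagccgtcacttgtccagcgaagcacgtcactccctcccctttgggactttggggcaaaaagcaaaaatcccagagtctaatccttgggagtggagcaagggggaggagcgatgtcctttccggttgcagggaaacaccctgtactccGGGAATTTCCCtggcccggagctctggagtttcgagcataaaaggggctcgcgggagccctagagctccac
Cx3cl1: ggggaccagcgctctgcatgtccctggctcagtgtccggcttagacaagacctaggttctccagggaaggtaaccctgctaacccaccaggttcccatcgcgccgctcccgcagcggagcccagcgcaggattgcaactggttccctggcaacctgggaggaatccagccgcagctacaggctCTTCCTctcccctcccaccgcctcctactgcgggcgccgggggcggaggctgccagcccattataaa

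Both strands were searched for 4 motifs, and no match of one motif overlapped a match of another. The interferon-stimulated response element core (ISRE), written GAAA, then any 2 bases, then GAAA, was present in 2.98% of all 32851 windows of this length, and Cxcl10 held it 213 to 204 bases before the start. The NF-kappaB consensus was present in 7.25% of windows. Cxcl10 held it at 159 to 150 bases and in overlapping matches at 104 to 94 bases, and Cxcl1 held overlapping matches on both strands at 71 to 61 bases before the start. The interferon-gamma activated site core (GAS, TTCNNNGAA), present in 7.02% of windows, was in none of the 4 printed windows. The ETS factor core (AGGAAG), present in 29.5% of windows, was found on the opposite strand of Cx3cl1 at 67 to 62 bases. For Cx3cl1 this counts from the RefSeq start, and the deposited gene begins further upstream, at 94772009, so the match lies inside the gene as the table draws it. The Cxcl9 window held none of the 4 motifs, and the window of Cxcl14, which is not printed, held 1 ISRE core and 1 GAS core. These are matches of letters within 250 bases and carry no measurement of binding.

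Levels were compared between genes in FPKM only. In Young Sham, Cx3cl1 averaged 30.2 ± 5.48 FPKM (SD, n = 5) and Cxcl16 17.7 ± 1.65 FPKM, and the other 7 members averaged under 1 FPKM, from 0.857 for Cxcl14 down to 0.0092 for Cxcl9. Cx3cl1 and Cxcl16 ranked 4 and 5 among 38 chemokine ligand genes in both sham groups. They stood behind Ccl21a, a lymphatic endothelial chemokine, and the platelet chemokines Ppbp and Pf4. In both bleomycin groups they ranked 6 and 7, since Cxcl12 and Ccl6 were above them there. In Aged Bleo, Ccl2 (2.12 ± 1.83 FPKM), Ccl5 (2.00 ± 2.77), Ccl7 (1.55 ± 1.66), Cxcl10 (1.32 ± 0.565) and Cxcl1 (1.02 ± 0.368) averaged above 1 FPKM (SD, n = 4). The SDs of Ccl5 and Ccl7 were larger than their means.

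**Figure D1:**
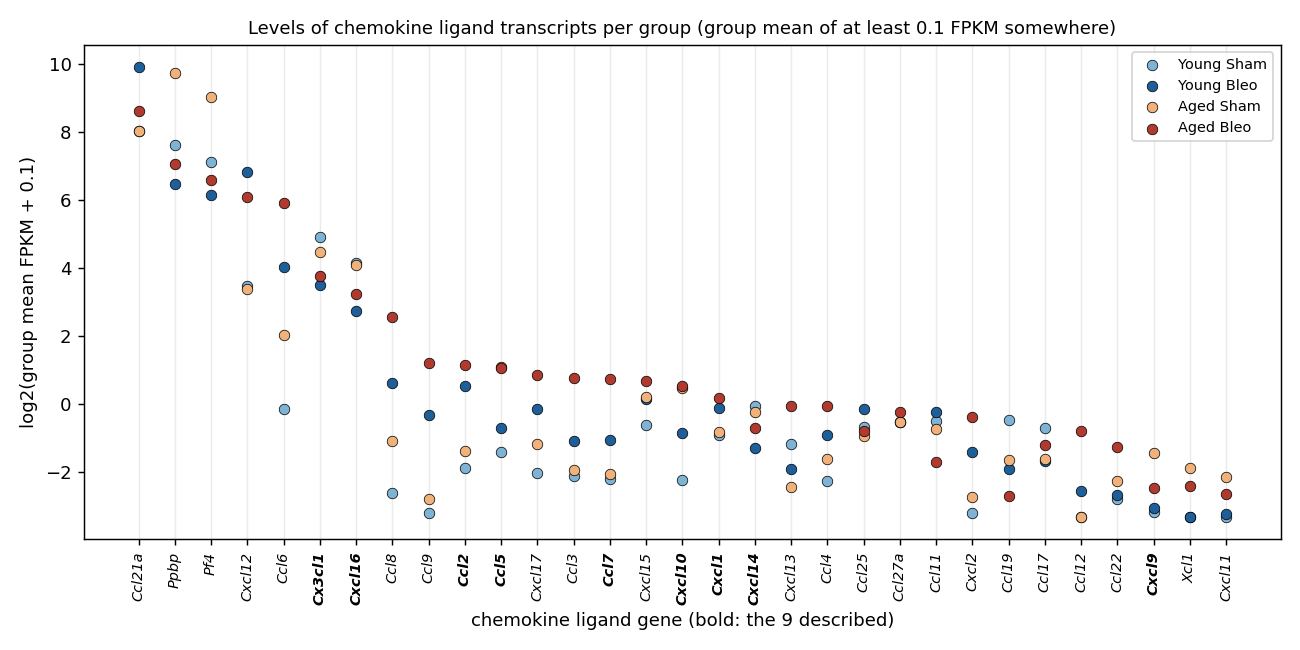
Group mean FPKM of 31 chemokine ligand genes on the log2(FPKM + 0.1) scale, 1 point per group, genes ordered by their highest group mean; 7 ligands under 0.1 FPKM in every group are not drawn. Cx3cl1 and Cxcl16 lie well above the other 7 members, and both are lower in the bleomycin groups.

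Expression was then compared between groups with DESeq2 on the counts, in a single model of all 16 libraries. Calls needed an adjusted p (Benjamini-Hochberg, over all genes) of 0.05 or lower together with a log2 fold change of 0.5 or more in either direction. Of the 9 members, 8 had an adjusted p. That of Ccl5 was withheld in every comparison by the filter on stray libraries (Cook's distance). In Aged Sham against Young Sham, 2 of the 8 were called, both higher, beside 3.35% of 18515 tested genes called in either direction, 2.24% higher and 1.11% lower. In Young Bleo against Young Sham, 2 were higher and 3 lower, beside 13.9% of genes called, 7.57% higher and 6.35% lower. In Aged Bleo against Young Sham, 4 were higher and 2 lower, beside 9.72%, 6.58% and 3.14%. Against its own sham group, Aged Bleo had 1 member called, lower, beside 5.83%, 3.39% and 2.44%. The edgeR quasi-likelihood test had values for all 9 members and called 1, 4, 3 and 1 of them in these comparisons, where it called 0.862%, 9.78%, 5.69% and 0.797% of all genes. Over the 8 members the median log2 fold change was 0.31, 0.93, 2.14 and -0.36 in the same order, beside medians over all tested genes of 0.02, 0.01, 0.02 and 0.01. The comparisons with Young Sham share those 5 libraries.

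**Figure D2:**
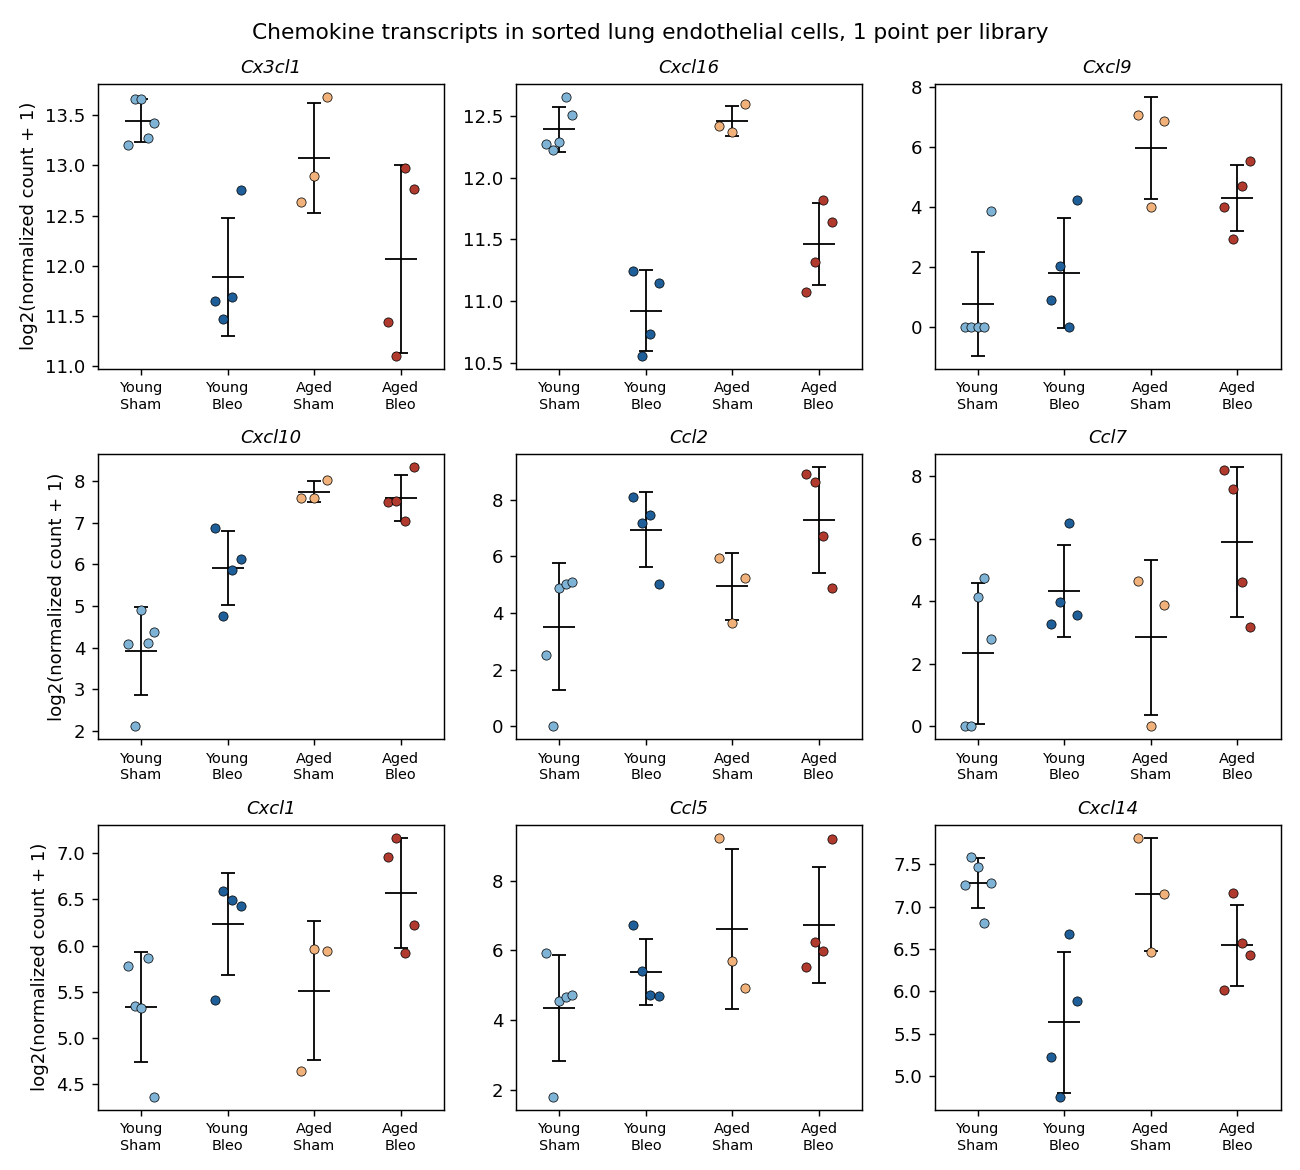
Normalized count of each chemokine on the log2(normalized count + 1) scale in the 16 libraries, 1 point per library in the order of their numbers, with the group mean of the log2 values (bar) and SD (whiskers). Axes differ between panels and do not start at 0. Cxcl16 and Cx3cl1 are lower in Young Bleo than in every Young Sham library, and Cxcl10 is higher in every aged library than in every young library.

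**Figure D3:**
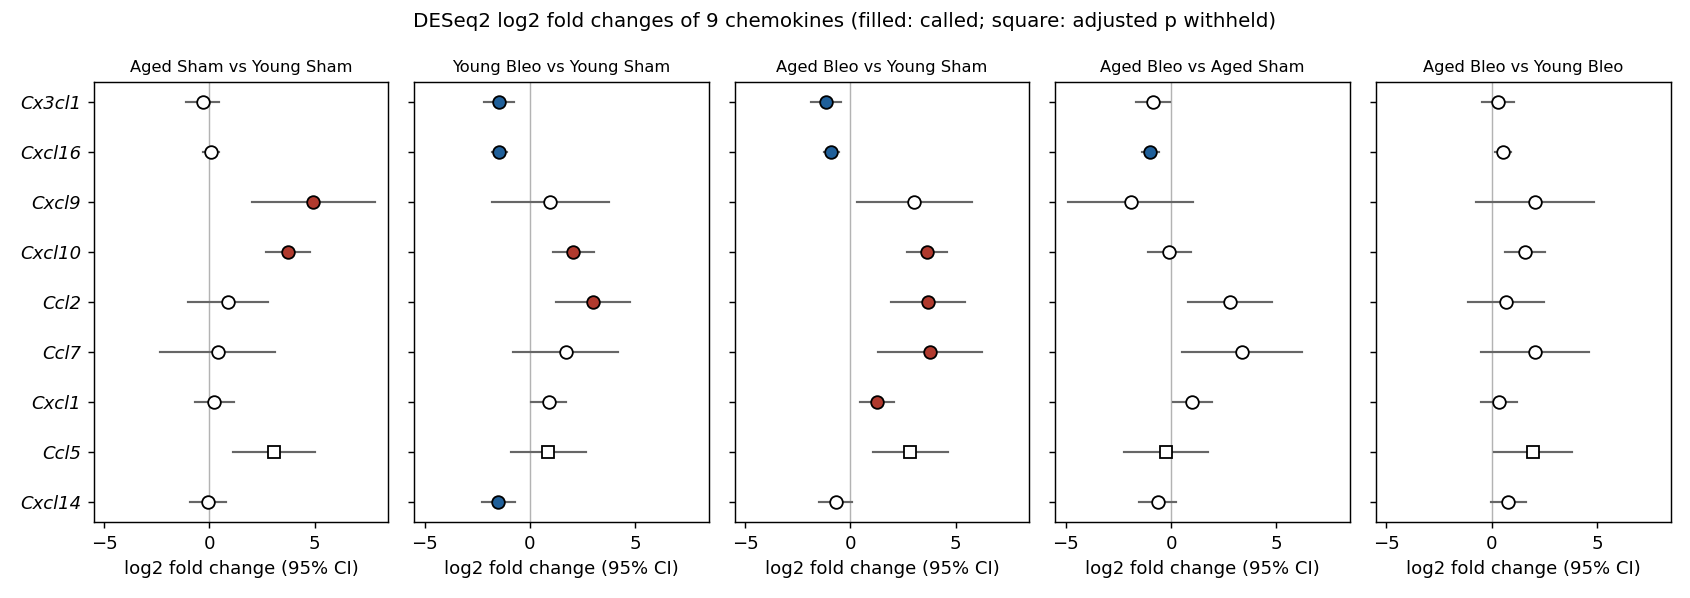
DESeq2 log2 fold change (points) and 95% confidence interval (lines) of the 9 chemokines in 5 pairwise comparisons; filled points were called (red higher, blue lower), and squares mark Ccl5, whose adjusted p was withheld. The intervals of Ccl7 and Cxcl9 are the widest, and those of Cxcl16 the narrowest.

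Cx3cl1 (ENSMUSG00000031778, chromosome 8, 94772009 to 94782423, protein-coding) encodes fractalkine, the tethered ligand of Cx3cr1 on monocytes. Its normalized count was 9427, 13000.2, 12973, 9938 and 10992 in Young Sham 21 to 25 and 3211, 2824, 3296 and 6896 in Young Bleo 17 to 20. It was 6378, 7593 and 13190 in Aged Sham 13 to 15 and 2766, 2196, 8044 and 6958 in Aged Bleo 1, 2, 3 and 5. Every bleomycin library lay below every Young Sham library, but Young Bleo 20 and Aged Bleo 3 and 5 lay within the range of Aged Sham. The fall was 2.78-fold in Young Bleo (log2 fold change -1.47, SE 0.365, adjusted p = 0.0011 in DESeq2, 0.023 in edgeR). In Aged Bleo it was 2.26-fold against Young Sham (-1.17, SE 0.365, adjusted p = 0.017), and edgeR made no call there (0.079). That call was also lost without Aged Bleo 1 (-0.97, adjusted p = 0.110), without Aged Bleo 2 (-0.93, adjusted p = 0.098) and without Young Sham 22 (-1.12, adjusted p = 0.052). Without both Aged Bleo 1 and Aged Bleo 2 it was -0.58 (adjusted p = 0.497). Against Aged Sham the difference was -0.86 (95% confidence interval -1.67 to -0.04, adjusted p = 0.230), and it was called only without Aged Bleo 3 (-1.19, adjusted p = 0.049). Aged Sham and Young Sham did not differ beyond the spread (-0.32, interval -1.09 to 0.46, adjusted p = 0.779).

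Cxcl16 (ENSMUSG00000018920, chromosome 11, 70453983 to 70459984, protein-coding) encodes the tethered ligand of Cxcr6, which also takes up oxidised lipoproteins. Its normalized counts were 4968, 4801, 5007, 6474 and 5842 in Young Sham 21 to 25 and 2430.2, 1504, 1705 and 2263 in Young Bleo 17 to 20. In Aged Sham 13 to 15 they were 5499, 5290.3 and 6217, and in Aged Bleo 1, 2, 3 and 5 they were 2149.8, 2553, 3610.4 and 3199. No bleomycin library reached the lowest sham library. This was the member with the tightest groups: the fall against Young Sham was 2.74-fold in Young Bleo (log2 fold change -1.46, SE 0.182, adjusted p = 4.0e-12) and 1.88-fold in Aged Bleo (-0.91, SE 0.182, adjusted p = 3.7e-05), and edgeR called both (adjusted p = 0.00088 and 0.0078). It was also the member called lower in Aged Bleo against Aged Sham, by 1.97-fold (-0.98, SE 0.207, adjusted p = 0.00041; 0.044 in edgeR). Without both Aged Bleo 1 and Aged Bleo 2 this last difference was -0.74 (adjusted p = 0.073). The platelet marker sum was 77172 to 410893 in Aged Sham and 7325 to 55114 in Aged Bleo, with 5 of its 6 markers called lower, beside 2.44% of all tested genes. Its r with Cxcl16 over the 16 libraries was 0.71, and its part in the Cxcl16 difference was not tested. Cxcl16 was higher in Aged Bleo than in Young Bleo by 0.54, which was not called (SE 0.192, adjusted p = 0.161). The difference between the injured groups was called without Aged Bleo 1 (0.66, adjusted p = 0.038) and without Aged Bleo 1 and 2 (0.78, adjusted p = 0.0059). The neighbouring gene Zmynd15 overlaps Cxcl16 in the table, and the strand setting of the counting is not given in the sources used here, so a share of these reads is uncertain.

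The endothelial markers are given beside the tethered chemokines. Pearson's r of log2 levels over the 16 libraries with the endothelial sum was 0.93 for Cx3cl1 and 0.88 for Cxcl16, and with the macrophage sum it was -0.88 and -0.79. These r values are descriptions, the levels share size factors and group differences, and the sum weighs abundant genes most. Its lower value in Young Bleo lay mostly in Car4, Cldn5 and Kdr, whose normalized counts averaged 252337, 220195 and 105456 in Young Sham and 63759, 116302 and 33769.5 in Young Bleo, while 9 of the 12 markers were not called lower. Of the 12 endothelial markers, 2 were called higher and 3 lower in Young Bleo against Young Sham, with a median log2 fold change of 0.02. The lower ones were Kdr, a VEGF receptor, Car4, a marker of alveolar capillaries, and the tight junction gene Cldn5 (-1.64, -1.98 and -0.92, adjusted p = 0.00081, 0.00025 and 4.3e-06). The higher ones were the transcription factor Erg and the sialomucin Emcn (0.69 and 0.54, adjusted p = 0.00011 and 0.015). Aged Bleo against Young Sham had 2 higher, Erg and Vwf (0.53 and 0.83), and 3 lower, Cldn5, Kdr and Car4 (-0.84, -1.26 and -1.37, the last pair not called by edgeR), with a median of -0.16. Against Aged Sham, Aged Bleo had higher Tek (1.01) and lower Cldn5 (-0.82, not called by edgeR), and the median was -0.02. Over all tested genes, 13.9%, 9.72% and 5.83% were called in these comparisons, in the same order. In Young Bleo against Young Sham, Pecam1, which encodes CD31, differed by -0.16 (adjusted p = 0.639). Cdh5, the endothelial cadherin, differed there by -0.41 (adjusted p = 0.0026), under the fold threshold. Kdr was 70375 in Young Bleo 20, the library with the highest Cx3cl1 of its group, and 19328 to 23272 in Young Bleo 17, 18 and 19. Whether a change in the kinds of EC sorted accounts for part of the Cx3cl1 and Cxcl16 differences was not tested.

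The sheddases and glycan enzymes that act on surface chemokines were followed as a list of 13 genes. Adam10 and Adam17, which release Cx3cl1 and Cxcl16, were called in no pairwise comparison. In Young Bleo against Young Sham 2 members of the list were higher and 1 lower, with a median log2 fold change of 0.16, and in Aged Bleo against Young Sham 2 were higher and 1 lower, with a median of 0.08. Over all tested genes, 13.9% and 9.72% were called in these comparisons, and 3.35% in Aged Sham against Young Sham. The heparan sulphate proteoglycan Sdc1 rose in Young Bleo (1.28, SE 0.193, adjusted p = 1.1e-08), as did the sulphotransferase Ndst1 (0.69, adjusted p = 0.041; 0.074 in edgeR), and Sdc2 fell in both bleomycin groups (-1.86 and -1.83, adjusted p = 2.6e-09 and 3.0e-09). Sdc4 was the gene of the list called in Aged Sham (0.82, SE 0.228, adjusted p = 0.014), where edgeR gave 0.082. It was also called in Aged Bleo against Young Sham (0.67, adjusted p = 0.017), together with Sdc1 (0.56, adjusted p = 0.039; 0.091 in edgeR). Sdc1 was lower in Aged Bleo than in Young Bleo (-0.72, adjusted p = 0.038; 0.270 in edgeR).

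Cxcl10 (ENSMUSG00000034855, chromosome 5, 92346638 to 92348889, protein-coding), the chemokine whose upstream ISRE core and NF-kappaB matches are printed above, separated the ages. Its normalized count was 16.1, 3.30, 28.7, 16.4 and 19.6 in Young Sham 21 to 25, and 194, 194 and 261 in Aged Sham 13 to 15. In Young Bleo 17 to 20 it was 117, 25.99, 57.3 and 69.6, and in Aged Bleo 1, 2, 3 and 5 it was 179.5, 184, 130.2 and 324. Every aged library was above every young library, injured or not, and only Young Bleo 18 fell inside the Young Sham range. The rise in Aged Sham was 13.3-fold (log2 fold change 3.74, SE 0.528, adjusted p = 1.8e-09 in DESeq2, 0.0033 in edgeR). Against Young Sham, Cxcl10 rose 4.17-fold in Young Bleo (2.06, SE 0.493, adjusted p = 0.00069; 0.018 in edgeR) and 12.6-fold in Aged Bleo (3.65, SE 0.487, adjusted p = 4.3e-11; 0.0015 in edgeR). The Young Bleo call was lost on the log2(FPKM + 1) scale with limma (0.37, adjusted p = 0.108). The Aged Sham and Aged Bleo calls held in every alternative setting and without each single library, with log2 fold changes of 3.46 to 3.98 and 3.34 to 3.90 when libraries were left out. Aged Bleo was not detectably different from Aged Sham (-0.09, 95% confidence interval -1.11 to 0.94, adjusted p = 0.962).

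Cxcl10 was also the member with the lowest p in the comparison of both injured groups. Aged Bleo exceeded Young Bleo by 3.02-fold, with groups that did not overlap (1.59, SE 0.488), but the adjusted p was 0.072 in DESeq2 and 0.354 in edgeR. The call was made without Young Bleo 17 (2.00, adjusted p = 0.014), the Young Bleo library with the most Cxcl10. The gene Art3 overlaps Cxcl10 in the table, so part of its reads could be shared.

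Cxcl9 (ENSMUSG00000029417, chromosome 5, 92321331 to 92328079, protein-coding) had the lowest mean FPKM of the members in every group but Aged Sham, where Ccl7 was lower, and few reads carry its result. It had 0 counts in Young Sham 21, 22, 23 and 24, where a count of 0 allows up to 3 counts, and a normalized count of 13.7 in Young Sham 25. The normalized counts were 132, 15.0 and 114 in Aged Sham 13 to 15, 0.866, 3.12, 0 and 17.8 in Young Bleo 17 to 20, and 14.9, 6.63, 25.2 and 45.4 in Aged Bleo 1, 2, 3 and 5. All Aged Sham libraries were above all Young Sham libraries, Aged Sham 14 by a small margin. Cxcl9 was called higher in Aged Sham (log2 fold change 4.95, SE 1.501, adjusted p = 0.033). This was lost in edgeR (adjusted p = 0.147) and without any single Aged Sham library (adjusted p = 0.183, 0.058 and 0.130 without 13, 14 and 15). It was also lost without Young Sham 21, 22 or 23 (adjusted p = 0.058, 0.064 and 0.063). Over all fits with libraries left out, this log2 fold change ranged from 4.53 to 8.66, with adjusted p from 1.35e-05 to 0.221. In Aged Bleo the difference from Young Sham was 3.03 (SE 1.39, adjusted p = 0.156), and in Young Bleo 0.96 (SE 1.42, adjusted p = 0.737). Both of these were called without Young Sham 25 (6.74 and 4.69, adjusted p = 0.00041 and 0.021), when every remaining Young Sham library stood at 0 and the fitted fold is no bound.

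Cxcl11, the other ligand of Cxcr3, is named here after its values were seen and was too low for the naming rule. It had 0 counts in all 5 Young Sham libraries and normalized counts of 30.0, 48.5 and 75.9 in Aged Sham 13 to 15. Against a floor of 3 counts per library, Aged Sham was at least 14.4-fold higher (adjusted p = 8.2e-05; 0.036 in edgeR). In Aged Bleo 1, 2, 3 and 5 it was 7.06, 46.4, 7.80 and 30.0, at least 6.38-fold above Young Sham (adjusted p = 0.00022; 0.020 in edgeR). Young Bleo 19 was the only Young Bleo library with Cxcl11 reads (6.61). The receptor Cxcr3 itself, a marker of activated T and NK cells, was at 0 in all Young Sham libraries and averaged 66.9 ± 61.1 in Aged Sham (SD, n = 3).

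The interferon pathway was followed through 16 receptors, kinases and factors. In Aged Sham 1 of the 16 was called higher and 0 lower, beside 2.24% and 1.11% of all tested genes. The median log2 fold change was 0.08, beside 0.02 over all genes. The called gene was Socs3, a feedback inhibitor of cytokine signalling (1.26, SE 0.297, adjusted p = 0.0023; 0.045 in edgeR). In Young Bleo 2 were higher and 1 lower, beside 13.9% of all tested genes called. In Aged Bleo against Young Sham 4 were higher and 1 lower, beside 9.72%. Socs3 rose in both (1.95 and 2.42), the interferon-gamma receptor chain Ifngr1 rose (1.12 and 1.05) while its partner Ifngr2 fell (-1.13 and -0.81), and the transcription factor Irf8 rose in Aged Bleo (1.09, adjusted p = 0.0093). The last of the 4 higher genes there was Usp18, which removes the ubiquitin-like Isg15 and is named after its values were seen (0.68, adjusted p = 0.041; 0.083 in edgeR). Irf1, Irf7 and Irf9, which act between the receptors and the Cxcl10 promoter, were called in no comparison. Across libraries, Cxcl10 had r = 0.73 with Cxcl9, 0.62 with the T and NK cell marker sum and 0.78 with the pan-leukocyte sum. The T and NK sum was 299.99 and 362 in Aged Sham 14 and 15, within the Young Sham range of 206.8 to 485, while Cxcl10 in these libraries was 194 and 261. Other leukocyte sums did not overlap between the sham groups. The pan-leukocyte sum was 2388 to 6565 in Aged Sham and 719 to 1519 in Young Sham, the B cell sum 700.4 to 1866 and 72.5 to 641, and the neutrophil sum 55.7 to 252 and 7.82 to 50.3, and r with Cxcl10 was 0.62 for the B cell sum and 0.74 for the neutrophil sum. Without Aged Sham 13 and Aged Bleo 5, which had the most T and NK markers, Cxcl10 was called in Aged Sham (3.81, adjusted p = 4.0e-07) and in Aged Bleo against Young Sham (3.34, adjusted p = 9.0e-08). Cxcl9 in Aged Sham was not (4.53, adjusted p = 0.221). The other leukocyte sums still separated the sham groups in that fit, and the part of leukocyte RNA in the Cxcl10 and Cxcl9 differences was not tested.

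Ccl2 (ENSMUSG00000035385, chromosome 11, 82035571 to 82037453, protein-coding) is the principal monocyte attractant of the family. Its normalized count was 4.72, 0, 28.7, 31.6 and 33.2 in Young Sham 21 to 25 and 271, 143, 174 and 31.7 in Young Bleo 17 to 20. It was 59.9, 11.5 and 36.6 in Aged Sham 13 to 15 and 476, 391, 104 and 28.4 in Aged Bleo 1, 2, 3 and 5. In each bleomycin group 3 libraries were above every sham library and the last, Young Bleo 20 or Aged Bleo 5, was within the sham range. Against Young Sham, Ccl2 rose 7.97-fold in Young Bleo (log2 fold change 2.99, SE 0.889, adjusted p = 0.0085), where edgeR gave 0.054 and the call was lost without Young Bleo 17 (2.58, adjusted p = 0.066). It rose 12.8-fold in Aged Bleo (3.68, SE 0.888, adjusted p = 0.0010; 0.034 in edgeR). Against Aged Sham it was 6.97-fold higher in Aged Bleo without a call (2.80, SE 1.01, adjusted p = 0.072), and it was called without Aged Bleo 5 (3.18, adjusted p = 0.025). Gm17268 overlaps Ccl2 in the table, so its reads are partly uncertain.

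Ccl7 (ENSMUSG00000035373, chromosome 11, 82045712 to 82047525, protein-coding) lies next to Ccl2 and also binds Ccr2. The normalized counts were 0, 0, 16.4, 25.7 and 5.87 in Young Sham 21 to 25, and 24.0, 0 and 13.7 in Aged Sham 13 to 15. After bleomycin they were 8.66, 14.6, 89.3 and 10.8 in Young Bleo 17 to 20 and 292, 192, 23.4 and 8.11 in Aged Bleo 1, 2, 3 and 5. High values were seen in 3 libraries, Aged Bleo 1 and 2 and Young Bleo 19, and the remaining bleomycin libraries were within the sham range. Ccl7 was called higher in Aged Bleo against Young Sham (3.77, SE 1.26, adjusted p = 0.032), but not by edgeR (adjusted p = 0.112). The call was lost without Aged Bleo 1 (2.98, adjusted p = 0.238), without Aged Bleo 2 (3.51, adjusted p = 0.138) and without Young Sham 21, 22 or 25 (adjusted p = 0.056, 0.055 and 0.076). In Young Bleo its difference was 1.70 (SE 1.27, adjusted p = 0.420). Against Aged Sham the Aged Bleo value was 3.37 (SE 1.44, adjusted p = 0.156).

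Macrophage markers moved with these monocyte attractants. Across the 16 libraries, r with the macrophage sum was 0.74 for Ccl2 and 0.59 for Ccl7, and r between Ccl2 and Ccl7 was 0.85. Lyz2 weighs most in this sum, with a mean normalized count of 32609 against 4171 for Chil3, the next marker. Of the 14 markers, 7 were called higher in Young Bleo and 10 in Aged Bleo against Young Sham, beside 7.57% and 6.58% of all tested genes. The libraries with the largest macrophage sums, Aged Bleo 1 (209055) and Aged Bleo 2 (126635), were those with the most Ccl2 and Ccl7. Lyz2 was 161722 and 98770.0 in them, and 2724 to 7022 in the sham libraries apart from Aged Sham 14 (22089). When both were left out, which had to shrink the differences, Aged Bleo against Young Sham was 1.77 for Ccl2 (adjusted p = 0.531) and 0.74 for Ccl7 (adjusted p = 0.933), neither of them called. Young Bleo 17, 18 and 19 had more Ccl2 than Young Bleo 20 and larger macrophage sums (39555 to 57242 against 18710.4). How much of the Ccl2 and Ccl7 reads came from macrophages was not tested. Ccr2 was at 0 in 4 of 5 Young Sham libraries and in 2 of 3 Aged Sham libraries. Its highest normalized count was 84.4, in Aged Bleo 5, and it was 3.92 and 0 in Aged Bleo 1 and 2, unlike Lyz2.

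**Figure D4:**
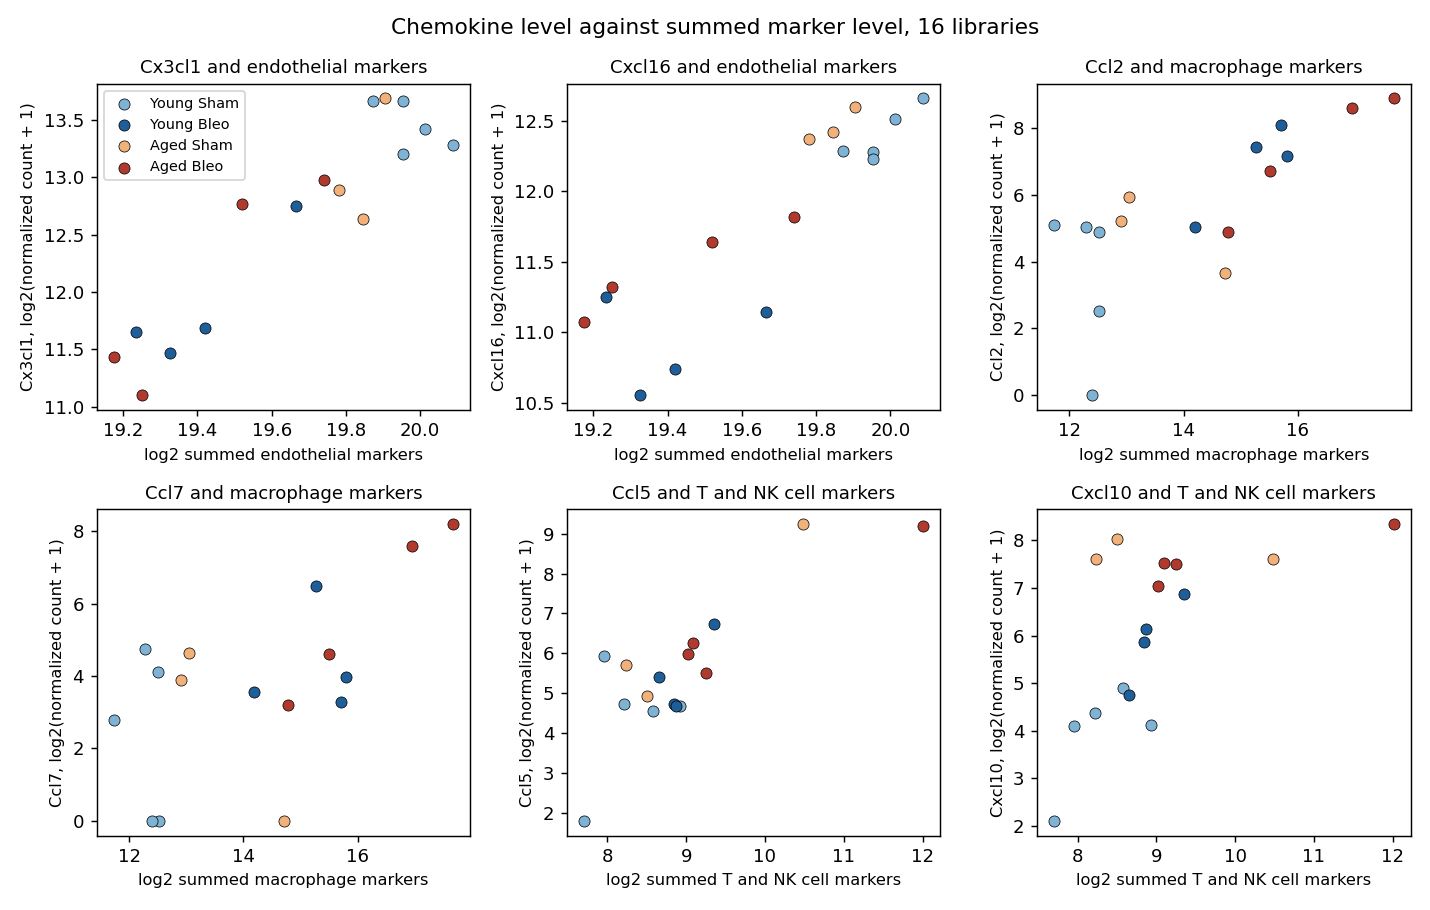
Each panel plots a chemokine, as log2(normalized count + 1), against the log2 of the summed normalized counts of a marker list plus 1, 1 point per library coloured by group (16 libraries). Cx3cl1 and Cxcl16 rise along the endothelial sum, Ccl2 and Ccl7 are highest at the 2 largest macrophage sums, and Ccl5 is highest in the 2 libraries with the most T and NK cell markers; Cxcl10 is higher in every aged library than in every young library.

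Cxcl1 (ENSMUSG00000029380, chromosome 5, 90891241 to 90893115, protein-coding), the neutrophil attractant with NF-kappaB matches upstream, was present at a low level in every library. Its normalized count was 53.8, 39.5, 39.0, 57.3 and 19.6 in Young Sham 21 to 25, and 24.0, 61.2 and 60.3 in Aged Sham 13 to 15. After bleomycin it was 41.6, 95.7, 89.3 and 85.0 in Young Bleo 17 to 20 and 124, 143, 59.4 and 73.8 in Aged Bleo 1, 2, 3 and 5. All 4 Aged Bleo libraries were above Young Sham, Aged Bleo 3 only just, and overlapped Aged Sham. Cxcl1 was called 2.39-fold higher in Aged Bleo against Young Sham (log2 fold change 1.26, SE 0.420, adjusted p = 0.031), though not by edgeR (adjusted p = 0.099). Its call was lost without Aged Bleo 1 or 2 (adjusted p = 0.144 and 0.184), without Young Sham 22, 23 or 25 (adjusted p = 0.072, 0.058 and 0.084), and without Aged Bleo 1 and 2 together (0.67, adjusted p = 0.678). Its differences in Young Bleo (0.89, SE 0.423, adjusted p = 0.143) and against Aged Sham (1.02, SE 0.480, adjusted p = 0.214) were not called. Of 7 neutrophil markers, 5 to 7 were detected in Aged Bleo, with sums of 130.2 to 610 that were highest in Aged Bleo 2, against sums of 7.82 to 50.3 in Young Sham. Across libraries r between Cxcl1 and the neutrophil sum was 0.59, and with the macrophage sum 0.76. Their part in the Cxcl1 difference was not tested.

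The NF-kappaB pathway list held 23 genes. In Young Bleo 3 were higher and 2 lower, with a median log2 fold change of -0.07, beside 13.9% of all tested genes called. In Aged Bleo against Young Sham 2 were higher and 0 lower, with a median of 0.06, beside 9.72%. The TNF receptor Tnfrsf1b rose in both (1.66 and 1.74, adjusted p = 0.00018 and 0.00010), and Nfkbiz, a nuclear co-regulator, rose in Aged Bleo (1.56, adjusted p = 1.6e-05). In Young Bleo the adaptor Myd88 also rose (0.51, adjusted p = 0.0028), while Rela, the activating subunit, and the inhibitor Nfkbie fell (-0.91 and -0.52, adjusted p = 0.0048 and 0.0062). Nfkbiz was also called in Young Bleo (0.84, adjusted p = 0.036; 0.073 in edgeR), and is given there outside the naming rule. In Aged Sham the called gene was Nfkb1, lower by -0.51 (adjusted p = 0.033; 0.120 in edgeR), beside 3.35% of all tested genes called.

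Ccl5 (ENSMUSG00000035042, chromosome 11, 83525778 to 83530518, protein-coding) is a product of T and NK cells. Its normalized count was 59.5, 2.47, 22.6, 24.6 and 25.4 in Young Sham 21 to 25, and 603, 50.8 and 29.2 in Aged Sham 13 to 15. After bleomycin it was 105, 41.6, 25.3 and 24.7 in Young Bleo 17 to 20 and 44.7, 75.2, 62.4 and 585 in Aged Bleo 1, 2, 3 and 5. Aged Sham 13 and Aged Bleo 5 stood far above all the others. These are the libraries with the largest T and NK marker sums: Cd3e, a T cell receptor subunit, was 182 and 624 in them and at most 73.8 elsewhere, and Nkg7, a cytotoxic granule gene, was 352 and 1161 against at most 166. Not all markers of the list moved together. In Aged Bleo against Young Sham, Ncr1 and Gzma were lower without a call (-6.55 and -0.89, adjusted p = 0.088 and 0.801), and the other markers were higher. The r between Ccl5 and the T and NK sum was 0.84 over 16 libraries. DESeq2 gave log2 fold changes of 3.08 (SE 0.988) in Aged Sham, 0.87 (SE 0.913) in Young Bleo and 2.83 (SE 0.908) in Aged Bleo against Young Sham, with the adjusted p withheld. Without the filter on stray libraries the adjusted p was 0.051, 0.609 and 0.023, so Ccl5 in Aged Bleo would have been called, and edgeR gave 0.207, 0.649 and 0.107. With Aged Sham 13 and Aged Bleo 5 left out, the differences were 0.57 in Aged Sham (adjusted p = 0.904) and 1.17 in Aged Bleo (adjusted p = 0.334).

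Cxcl14 (ENSMUSG00000021508, chromosome 13, 56288647 to 56296551, protein-coding) is a homeostatic chemokine. It was 152, 191, 176, 111 and 154 in Young Sham 21 to 25 as normalized counts, and 36.4, 25.99, 101 and 58.0 in Young Bleo 17 to 20. In Aged Sham 13 to 15 it was 224, 87.7 and 142, and in Aged Bleo 1, 2, 3 and 5 it was 63.5, 142, 94.2 and 85.2. All Young Bleo libraries were below all Young Sham libraries, and Young Bleo 19 came closest. The fall was 2.84-fold in Young Bleo (log2 fold change -1.51, SE 0.397, adjusted p = 0.0025; 0.030 in edgeR) and was called without each single library (-1.96 to -1.27). Aged Bleo differed by -0.70 from Young Sham (SE 0.391, adjusted p = 0.274) and by -0.64 from the aged sham group (SE 0.446, adjusted p = 0.479). Aged and young injured cells differed by 0.80 (SE 0.418, adjusted p = 0.492). Over the 16 libraries, r of Cxcl14 was 0.66 with the endothelial sum, 0.61 with the mural sum and -0.61 with the macrophage sum. The part of these cell types in the Cxcl14 fall was not tested.

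Whether age altered the chemokines of injured cells was taken from Aged Bleo against Young Bleo. DESeq2 called 0 of 8 members with an adjusted p, beside 1.03% of all genes. It gave 2 members, Cxcl10 and Cxcl16, an unadjusted p under 0.05. With edgeR 0 of 9 were called, beside 0.0437% of genes, and 2 had an unadjusted p under 0.05, and limma voom called 0. Whether the response to bleomycin differed with age was tested as (Aged Bleo minus Aged Sham) minus (Young Bleo minus Young Sham). DESeq2 called 0 of 8, beside 0.381% of 19440 genes, with 1 unadjusted p under 0.05. Under edgeR 0 of 9 were called, beside 0.00546%, with 1 under 0.05, and voom called 0. The member with the lowest p was Cxcl10, whose response was lower in aged cells by a log2 fold change of -2.14 (SE 0.719, 95% confidence interval -3.55 to -0.74, adjusted p = 0.221). Its own values stand behind this: the step from sham to bleomycin was 2.06 in young cells and -0.09 in aged cells. The intervals of the other members were wide. They ran from -0.06 to 1.02 for Cxcl16, from -0.47 to 1.70 for Cx3cl1 and from -2.10 to 5.44 for Ccl7.

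The members were also compared with each other over the 16 libraries, as a description, since libraries share groups, size factors and cell makeup. Cx3cl1 and Cxcl16 had r = 0.84, and Cxcl14 had 0.73 with Cxcl16 and 0.59 with Cx3cl1. Against these stood Ccl2, with r = -0.79 to Cx3cl1 and -0.61 to Cxcl16. Ccl5 had 0.71 with Cxcl10 and 0.55 with Cxcl9. Among the 13773 genes whose normalized count averaged 50 or more, the gene closest to Cx3cl1 was Ppp2r5a (r = 0.99), followed by Timp2 and Fmo1 (0.98 each). Cxcl16 was closest to Tspan7 (0.97), Lamp1 and Cd47 (0.96 each), and Cxcl10 to Serpina3n (0.93), Fosb (0.91) and Ybx1 (0.89). The genes closest to Cxcl1 were Abhd17c (0.91), C5ar1 (0.87) and Fpr1 (0.87), the last of which are receptors of neutrophils and macrophages. Those closest to Cxcl14 were Gtpbp8 (0.94), Mthfd2l (0.89) and Gnaq (0.88), and to Ccl2 Phykpl, Uchl5 and Hnrnpa1 (0.86 to 0.88). Ccl7 had Ccl2 (0.85), Gm17122 (0.84) and Phykpl (0.82), Ccl5 had Bmp8b (0.87), Sf3a2 (0.83) and Gm20529 (0.82), and Cxcl9 had Gm12606 (0.84), Rragb (0.83) and Fosb (0.82).

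Signalling receptors of several members were near or at 0 in uninjured young cells. Cxcr3 and Ccr3 had 0 counts in all Young Sham libraries. Cx3cr1, the receptor of Cx3cl1, was called higher than in Young Sham in Aged Sham, Young Bleo and Aged Bleo, of which edgeR did not make the Aged Sham call (0.208). Its normalized count was 0 to 8.20 in Young Sham, near the floor of 3 counts, so no fold is given, and it was at most 54.1 in any library. Cxcr3 was called in Aged Bleo (adjusted p = 0.030; 0.074 in edgeR), where it was 44.7, 0, 0 and 248 in libraries 1, 2, 3 and 5. The highest of these, Aged Bleo 5, is the library with the most T and NK markers. Both were too low for the naming rule and are named after their values were seen. The receptor that the rule names is Ccr1, a receptor of Ccl5 and Ccl7 found on myeloid cells. Its normalized count averaged 0.566 ± 1.27 in Young Sham (SD, n = 5) and 0.666 ± 1.15 in Aged Sham (SD, n = 3), against 47.4 ± 49.6 and 279 ± 343 in young and aged bleomycin cells (SD, n = 4 each). Aged Bleo 1 and 2, with the largest macrophage sums, had 748 and 318, and Aged Bleo 3 and 5 had 48.6 and 0. Ccr1 was called in Young Bleo (adjusted p = 0.041) and Aged Bleo (adjusted p = 0.0026), and edgeR called both (0.038 and 0.012). Every Young Sham library was under the floor of 3 counts or at it, so no fold is given.

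Atypical receptors bind chemokines without signalling through G proteins, and the levels of the 5 genes differed widely. Ackr2, which takes up inflammatory CC chemokines, averaged 99.97 FPKM in Young Sham, Ackr3, which takes up Cxcl12, 33.1 FPKM, Ccrl2 33.95 FPKM, Ackr4 3.06 FPKM and Ackr1 0.774 FPKM. Ackr1, the Duffy receptor of venular ECs, carries Ccl2, Ccl5, Ccl7 and Cxcl1 across the endothelium. Its normalized count averaged 112 ± 56.4 in Young Sham (SD, n = 5) and 446 ± 294 in Aged Sham (SD, n = 3). After bleomycin it averaged 1391 ± 215 in young cells and 2118 ± 1549 in aged cells (SD, n = 4 each). The log2 fold changes of Ackr1 against Young Sham were 2.00 (SE 0.523, adjusted p = 0.0082), 3.64 (SE 0.480, adjusted p = 4.1e-11) and 4.25 (SE 0.479, adjusted p = 1.8e-15) in Aged Sham, Young Bleo and Aged Bleo. The Aged Sham call was not made by edgeR (0.088). Ackr4 fell in Aged Sham (-1.31, adjusted p = 0.0085; 0.091 in edgeR), in Young Bleo (-0.87, adjusted p = 0.041; 0.089 in edgeR) and in Aged Bleo against Young Sham (-1.34, adjusted p = 0.00079). Ackr2 fell in Young Bleo (-0.60, adjusted p = 0.014; 0.051 in edgeR) and Ackr3 was called higher in Aged Bleo (0.97, adjusted p = 0.0078). Ackr3 was 29246 and 34344 in Aged Bleo 1 and 2, the libraries with the largest macrophage sums, and 11869 and 12259 in Aged Bleo 3 and 5, within the Young Sham range of 9631 to 12456.

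Of the 29 other ligand genes, 22 had an adjusted p in the pairwise comparisons. Against Young Sham, 3 were higher and 0 lower in Aged Sham, 6 higher and 0 lower in Young Bleo and 9 higher and 1 lower in Aged Bleo, while Aged Bleo had 5 higher and 2 lower than Aged Sham. Their median log2 fold changes were 1.13, 1.18, 2.78 and 0.99. Over all tested genes, 3.35%, 13.9%, 9.72% and 5.83% were called in the same order. In Aged Sham the named genes were the platelet chemokines Ppbp (2.27, adjusted p = 0.0019) and Pf4 (2.06, adjusted p = 0.0070), where edgeR made no call (0.060 and 0.088). The platelet marker sum, which includes both, was 31746 to 56556 in Young Sham and 77172 to 410893 in Aged Sham. The 4 of the 6 higher genes in Young Bleo that the naming rule gives were Ccl21a (1.87, adjusted p = 2.5e-09), Cxcl12 (3.35, adjusted p = 7.5e-09), and the monocyte and macrophage chemokines Ccl9 (6.83, adjusted p = 0.00011) and Ccl8 (4.42, adjusted p = 0.00023). Of the 9 higher genes in Aged Bleo against Young Sham, the rule gives Ccl8 (6.50), Ccl9 (8.56), Ccl6 (6.27) and Cxcl12 (2.66), and the gene that fell was Ccl19 (-3.56, named after its values were seen). Against Aged Sham, Aged Bleo had higher Cxcl12 (2.60), Ccl8 (3.86), Ccl3 (3.22), Ccl9 (5.62) and Ccl6 (3.81), none of them called by edgeR, and lower Ppbp (-2.82) and Pf4 (-2.59). Ccl3, Ccl9 and Ccl6 are outside the naming rule there. Ccl21a, the lymphatic chemokine, was lower in Aged Bleo than in Young Bleo (-1.26, adjusted p = 0.0036; 0.131 in edgeR).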

How the data were processed

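RNA was sequenced from sorted CD31+ CD45- EpCAM- GFP- lung cells of 16 libraries. The authors aligned reads with STAR 2.5.2b to mm10 and counted them per gene with featureCounts of the Subread package, as the submitters' processing notes and the study's methods name them, and deposited raw counts per gene. The deposited FPKM values were scaled by the authors for gene length and library total. How strand and reads with several matches were handled is not given in the sources used here. The labels name a SMART-Seq v4 and Nextera library and the study's methods a TruSeq poly(A) library, which the data do not settle. All count and FPKM columns were matched to libraries by name, with 0 left over, and every gene was handled by identifier.

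DESeq2 1.42.0 (R 4.3.3; Wald test, Benjamini-Hochberg adjustment over all genes) was fitted on all 16 libraries with group as the single term, as the study's methods name DESeq2. There were 5 pairwise comparisons and the difference of the bleomycin responses. Alternatives were the quasi-likelihood test of edgeR 4.0.16, limma 3.58.1 (voom on counts and trend on log2(FPKM + 0.1) and log2(FPKM + 1)), TMM size factors, a filter of at least 10 counts in at least 3 libraries, no Cook's filter, the compared groups only, and leaving out each library. The DESeq2 fit was tested on simulated data. The members, gene lists and rules were chosen with earlier results of these data known. Named were all 9 members, up to 4 called genes per pathway list and comparison (lowest adjusted p, mean normalized count 50 or more), the 3 genes with the highest Pearson's r to each member (log2(normalized count + 1)), and defining markers of cell types. A count of 0 was given a floor of 3 counts per library, and floors cover counting error only. Upstream sequences are those of RefSeq, GRCm38.p6. Some genes of the receptor and interferon pathway lists are not reported here.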

Additional observations from a re-analysis of the deposited data

Results flagged for a closer look

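Single libraries stood apart from the rest of their group in 4 of the 27 groups of 4 or 5 libraries examined (9 chemokines in Young Sham, Young Bleo and Aged Bleo), by the gap to the nearest library as a share of the group's range (Dixon's test). Chance alone gives about 1 in 20 groups when values are normally distributed, which low counts are not, so the number of such groups is not read against that rate. A single library above 0, as for Cxcl9, always stands apart by this measure. The normalized count of Cxcl9 was 13.7 in Young Sham 25 and 0 in the other 4 Young Sham libraries. Cx3cl1 was 6896 in Young Bleo 20, and the nearest Young Bleo library had 3296. This library also had the most Kdr and the smallest macrophage marker sum of its group. Ccl7 was 89.3 in Young Bleo 19, and the nearest library had 14.6. Ccl5 was 585 in Aged Bleo 5, where the nearest Aged Bleo library had 75.2, and this library had the largest sum of T and NK cell markers. The causes were not tested.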

How the results depend on the processing

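Of 423 log2 fold changes of members under other settings, 395 kept their direction and their side of the threshold, and of 594 with libraries left out 525 did. The number of members called was 1 in Aged Sham against Young Sham under edgeR, voom, both FPKM scales, the compared groups alone, and with Aged Sham 13 and Aged Bleo 5 left out, a pair chosen after seeing the data (1 to 2 with single libraries left out). In Young Bleo against Young Sham it was 3 on the log2(FPKM + 1) scale (4 to 6 with single libraries left out). In Aged Bleo against Young Sham it was 3 under edgeR and voom and 2 without Aged Bleo 1 and 2, a pair also chosen after seeing the data (3 to 7 with single libraries left out). In Aged Bleo against Aged Sham it was 2 with the compared groups alone or without Aged Sham 13 and Aged Bleo 5, and 0 without Aged Bleo 1 and 2 (1 to 2 with single libraries left out). In Aged Bleo against Young Bleo it was 1 without Aged Bleo 1 and 2 (0 to 1), and for the response difference 0 in every fit. The number of all genes called moved too, by over 1.5 times in 22 of 47 settings and in 17 of 66 fits with 1 library or a pair left out. A member count is therefore not comparable between settings on its own. With voom it was 104 in place of 621 in Aged Sham against Young Sham and 53 in place of 1080 in Aged Bleo against Aged Sham, and on the log2(FPKM + 1) scale 1446 in place of 2578 in Young Bleo. Without Aged Bleo 1 and 2 it was 417 in place of 1800 against Young Sham, 131 in place of 1080 against Aged Sham and 1097 in place of 190 against Young Bleo.

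Directions that turned belonged to differences that were not called. In Aged Sham against Young Sham, Cxcl16 was -0.064 and -0.060 on the FPKM scales (-0.0070 to 0.14 with single libraries left out), Ccl7 -0.44 without Aged Sham 13 and Aged Bleo 5 (-0.45 to 1.24) and Cxcl14 ranged from -0.45 to 0.21. In Young Bleo against Young Sham, Cxcl9 ranged from -1.09 to 4.69. In Aged Bleo against Aged Sham, Ccl5 was 0.50 under voom, 0.18 and 0.027 on the FPKM scales, and 0.60 and 0.51 without the pairs (-1.90 to 2.26), and Cxcl10 was 0.00063 on the log2(FPKM + 1) scale and 0.068 without Aged Bleo 1 and 2 (-0.40 to 0.080). In Aged Bleo against Young Bleo, Cxcl1, Ccl2 and Ccl7 were -0.23, -1.23 and -0.97 without Aged Bleo 1 and 2, and Cx3cl1 ranged from -0.029 to 0.68. For the response difference, Ccl2 was 0.14 on the log2(FPKM + 1) scale and 0.74 without Aged Sham 13 and Aged Bleo 5 (-0.71 to 0.37), Cxcl1 was -0.060 and -0.46 without the pairs (-0.18 to 0.32), Ccl7 -1.36 without Aged Bleo 1 and 2, and Ccl5 ranged from -2.77 to 1.39. The causes were not tested.

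No paired analysis was possible because no number in a library title occurs in more than 1 group. Aged Sham holds 3 libraries, and low counts limit Cxcl9, Ccl7 and Cxcl11, whose Young Sham libraries were mostly at or near 0.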
